A study of Mus musculus with 18 samples.

Results

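The transcriptome of adult mouse heart fibroblasts was compared between cells transplanted under the kidney capsule (HFs) and the same kind of cells left in culture (HFc). The comparison took 6 of the 18 libraries of the series, 3 HFs and 3 HFc chosen by their sample titles, and covered all genes. Kidney (KFs, KFc) and tail (TFs, TFc) fibroblasts were handled in the same way. Their 12 libraries share the fit that sets the gene filter, scaling and spread of every heart comparison. Their own values are used only where a heart response is set against the response of another organ. All cells were primary fibroblasts from male *Rosa mT/mG* mice aged 10 weeks on a C57BL/6 background, so that every group carried the same membrane TdTomato reporter. After 10 days of culture, the cells were soaked into gelatin foam and placed beneath the capsule of the kidney of syngeneic C57BL/6J mice aged 10 to 11 weeks. HFs were sorted from the recipients 3 days later as CD45−;TdTomato+ cells, and HFc were the remaining cells, replated and kept for 3 more days. No foam, implantation or sorting step is given for HFc, so the kidney site and these handling steps cannot be told apart in this comparison. The study speaks of biological replicates, but nothing says that they came from separate animals or cultures. The p-values measure only the spread between libraries of a group, estimated over all 18 libraries.

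Fibroblasts produce and remodel the extracellular matrix of an organ. On a rigid culture surface they spread, assemble actin stress fibres and approach a myofibroblast state, in which the coactivator YAP and its TEAD partners drive targets such as *Ccn2* and *Ankrd1*. In a wound they also release chemokines, complement and acute phase proteins, and they adjust sterol synthesis, glycolysis and cell division to the supply of lipid, oxygen and growth factors. The genes below are ordered by these roles.

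The heart libraries held between 18428401 and 31534743 counts. Levels are given as CPM, a gene's counts scaled to a common library total with TMM factors, and single values follow the order of replicates 1, 2 and 3. The 3 HFc libraries lay closer together (distances of 2.39 to 2.52 over the 500 genes with the largest log2 differences) than the 3 HFs libraries (2.82 to 3.23), and the distances between the groups were larger than either (4.99 to 5.85). Mitochondrially encoded transcripts took 11.1%, 12.2% and 17.1% of the counts in HFs and 7.61% to 7.86% in HFc. Transcripts of other cell types also differed between the HFs libraries, and these are described first because they accompany several of the results.

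Fibroblast markers were present in every library, and *Tbx20*, which the paper found restricted to heart fibroblasts, was still detected after transplantation. The 9 fibroblast markers summed to between 41570 and 76310 CPM in HFs and between 14950 and 15300 CPM in HFc. *Col1a1* and *Col1a2* made up 36300 to 71130 CPM of the sum in HFs and 8866 to 9131 CPM in HFc, while the other 7 together were lower in HFs (5057 to 5274 CPM) than in HFc (6081 to 6382 CPM). *Tbx20*, *Gata4* and *Tcf21*, transcription factors of cardiac mesenchyme, together reached 509 to 595 CPM in HFs and 1405 to 1456 CPM in HFc. The paper reports *Gata4* in fibroblasts of all organs and *Tcf21* in a group of lung fibroblasts, so only *Tbx20* marks heart origin here. The 6 leukocyte markers (*Ptprc* among them, which encodes the CD45 used in the sort) summed to 79.6 to 136 CPM in HFs and 74.6 to 86.3 CPM in HFc, and the endothelial markers to 28.5 to 33.9 and 27.6 to 28.4 CPM. The 5 cardiomyocyte markers summed to 92.7 to 107 CPM in HFc, nearly all of it *Tnnt2*, and to 3.19 to 6.87 CPM in HFs, while *Myh6*, *Actc1* and *Myl2* were at or near 0 in every library.

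Kidney tubule transcripts were found in all 3 HFs libraries and differed strongly between them. The 5 proximal tubule markers (*Kap*, *Slc34a1*, *Slc27a2* and *Lrp2* among them) summed to 134, 1133 and 81.9 CPM in HFs and to 10.7 to 11.7 CPM in HFc, where 4 of the 5 had no count in any library and the rest was *Lrp2*. The 4 markers of the distal nephron reached 11.2, 77.9 and 40.6 CPM in HFs and at most 0.109 CPM in HFc. Erythroid transcripts had another distribution, with 36.4, 0.132 and 39.9 CPM in HFs and none in HFc. Replicate 2 was thus the HFs library with the most tubule transcripts and the fewest erythroid ones, as the plot of cell type markers by library shows. In a bulk sample, fewer cells of a type and less RNA per cell cannot be told apart.

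**Figure D1:**
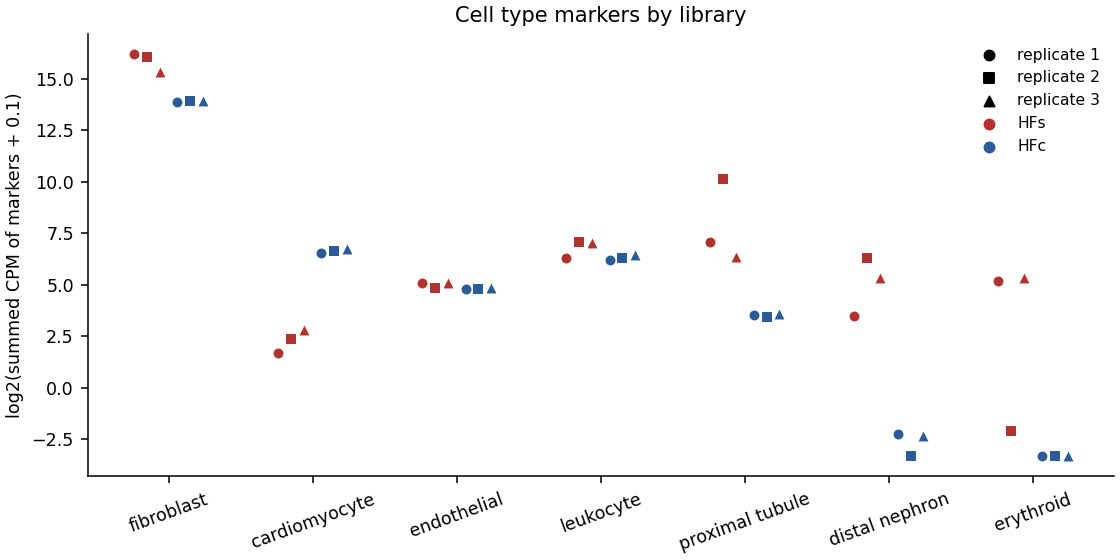
Summed level of the markers of each cell type, as log2(CPM + 0.1), in each HFs (red) and HFc (blue) library, with the replicate given by the symbol. Proximal tubule markers were highest in HFs replicate 2 (1133 CPM), erythroid markers were at 0.132 CPM in that library, and the 3 HFc libraries lay close together for every cell type except the distal nephron.

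A large part of the transcriptome differed in level between HFs and HFc. Of 16577 genes with enough counts to be tested, 3038 (18.3%) rose in HFs and 1547 (9.33%) fell, where a gene was called at an adjusted p below 0.05 (edgeR's quasi-likelihood test, two-sided, Benjamini-Hochberg adjustment over all genes tested) and an absolute log2 fold change over 1. Changes of 4-fold or more were found in 1672 genes that rose and 385 that fell, and changes of 16-fold or more in 635 and 74. In 545 of the genes that rose, all HFc libraries held at most 3 counts, taken here as the floor of detection in a library, and 61 genes that fell were at or under this floor in all HFs libraries. A fold against such a group is computed against the floor and given as a lower bound, and these floors cover counting error only. The HFs and HFc libraries did not overlap in 2909 of the genes that rose and 1529 of those that fell. This largely follows from the call itself, and the share without overlap over all genes tested is not given here. The median log2 fold change of all genes tested was 0.05.

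**Figure D2:**
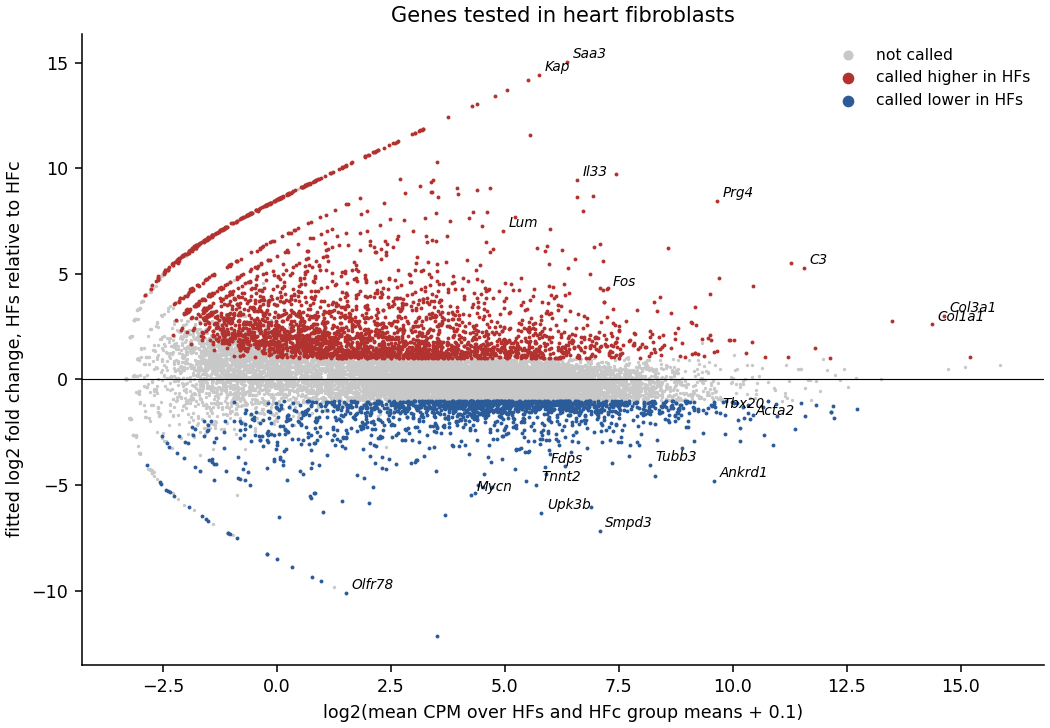
Fitted log2 fold change in HFs relative to HFc (vertical axis) against the mean level of the HFs and HFc groups as log2(CPM + 0.1) (horizontal axis) for the 16577 genes tested, with 3038 genes called higher in red and 1547 called lower in blue. The curved lines of points on the left and at the upper edge are genes with few or no counts in one group, whose fitted values depend on the prior count, and the labelled genes are described in the text.

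The largest rises among protein-coding genes reaching 10 CPM were those of an acute phase gene and of genes of the kidney tubule. *Saa3*, a serum amyloid A of the acute phase response, had 44.9, 159 and 288 CPM in HFs and no count in HFc, an at least 1373-fold rise. *Kap*, an androgen-regulated protein of the proximal tubule, had 20.9, 296 and 5.62 CPM in HFs and none in HFc, at least 901-fold. The phosphate transporter gene *Slc34a1* had 16.2, 174 and 8.80 CPM in HFs and none in HFc, at least 555-fold. The same order of libraries, with replicate 2 highest, was seen for *Slc27a2*, *Cyp2j5*, *Fut9*, *Slc22a12* and *Akr1c21*, whose rises were at least 458, 224, 154, 153 and 149-fold. *Pck1*, which encodes a gluconeogenic enzyme, was measured at 15.7, 57.05 and 42.7 CPM in HFs and at none in HFc, at least 322-fold. These tubule genes were highest in HFs replicate 2, the library with the largest sum of tubule markers, to which *Kap*, *Slc34a1* and *Slc27a2* themselves contribute, and *Saa3* was highest in replicate 3.

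The largest falls were taken under limits of at least 10 CPM in the higher group, here HFc, and no overlap between the groups. Unlike the largest rises, where HFc held no count, none of them was at the floor in all HFs libraries. *Smpd3*, which encodes a neutral sphingomyelinase, was measured at 277, 267 and 259 CPM in HFc and at 0.721, 1.19 and 3.30 CPM in HFs, a log2 fold change of -7.19 ± 0.35 (SE, n = 3 per group). The uroplakin genes *Upk1b* (24.9, 25.5 and 25.8 CPM in HFc and at most 0.455 CPM in HFs) and *Upk3b* (109 to 111 CPM and at most 2.16 CPM) had log2 fold changes of -6.42 and -6.32. No library of one group reached the range of the other for these 3 genes, as the limits require. *Mycn*, a MYC family transcription factor, was at 35.6, 34.8 and 41.3 CPM in HFc and at 0.601, 0.925 and 0.949 CPM in HFs (-5.46 ± 0.47). *Tnnt2*, the troponin T of heart muscle, fell from 92.2, 99.2 and 107 CPM to 1.32, 3.30 and 4.44 CPM. The other 5 chosen under these limits were the serpin gene *Serpinb9b* (-6.06), *Lrrn4* (-5.37), *Cntn2* (-5.09) and the receptor phosphatase genes *Ptprq* (-5.07) and *Ptprz1* (-4.98). The plot of levels by library shows the separation for these and other genes described here. With no limit on level or gene type, the largest falls were those of *Rpl10-ps1*, *Olfr78* and *Crct1*, which had no count in any HFs library and fell at least 158, 38.6 and 26.2-fold. *Rpl10-ps1* is a pseudogene whose reads can be shared with near-identical copies, so its fall is uncertain.

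**Figure D3:**
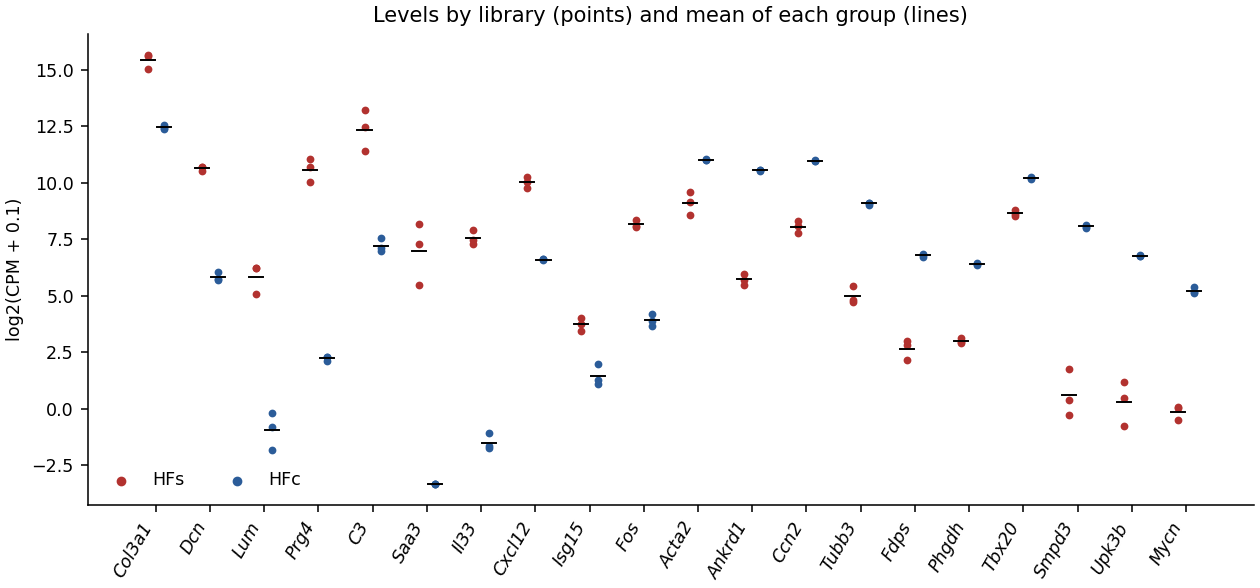
Level of 20 genes as log2(CPM + 0.1) in each HFs (red) and HFc (blue) library, with a line at the mean of each group. No gene shown overlaps between the groups, and *Saa3*, with no count in HFc, lies at the lower limit of the scale there.

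The 52 gene lists examined are summarized in the plot of gene lists by the share of their members that were called. Sterol synthesis and tubulin genes fell nearly throughout, contractile, YAP and cell cycle genes fell in part, and most members of the acute phase, interferon-stimulated, complement and collagen lists rose.

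**Figure D4:**
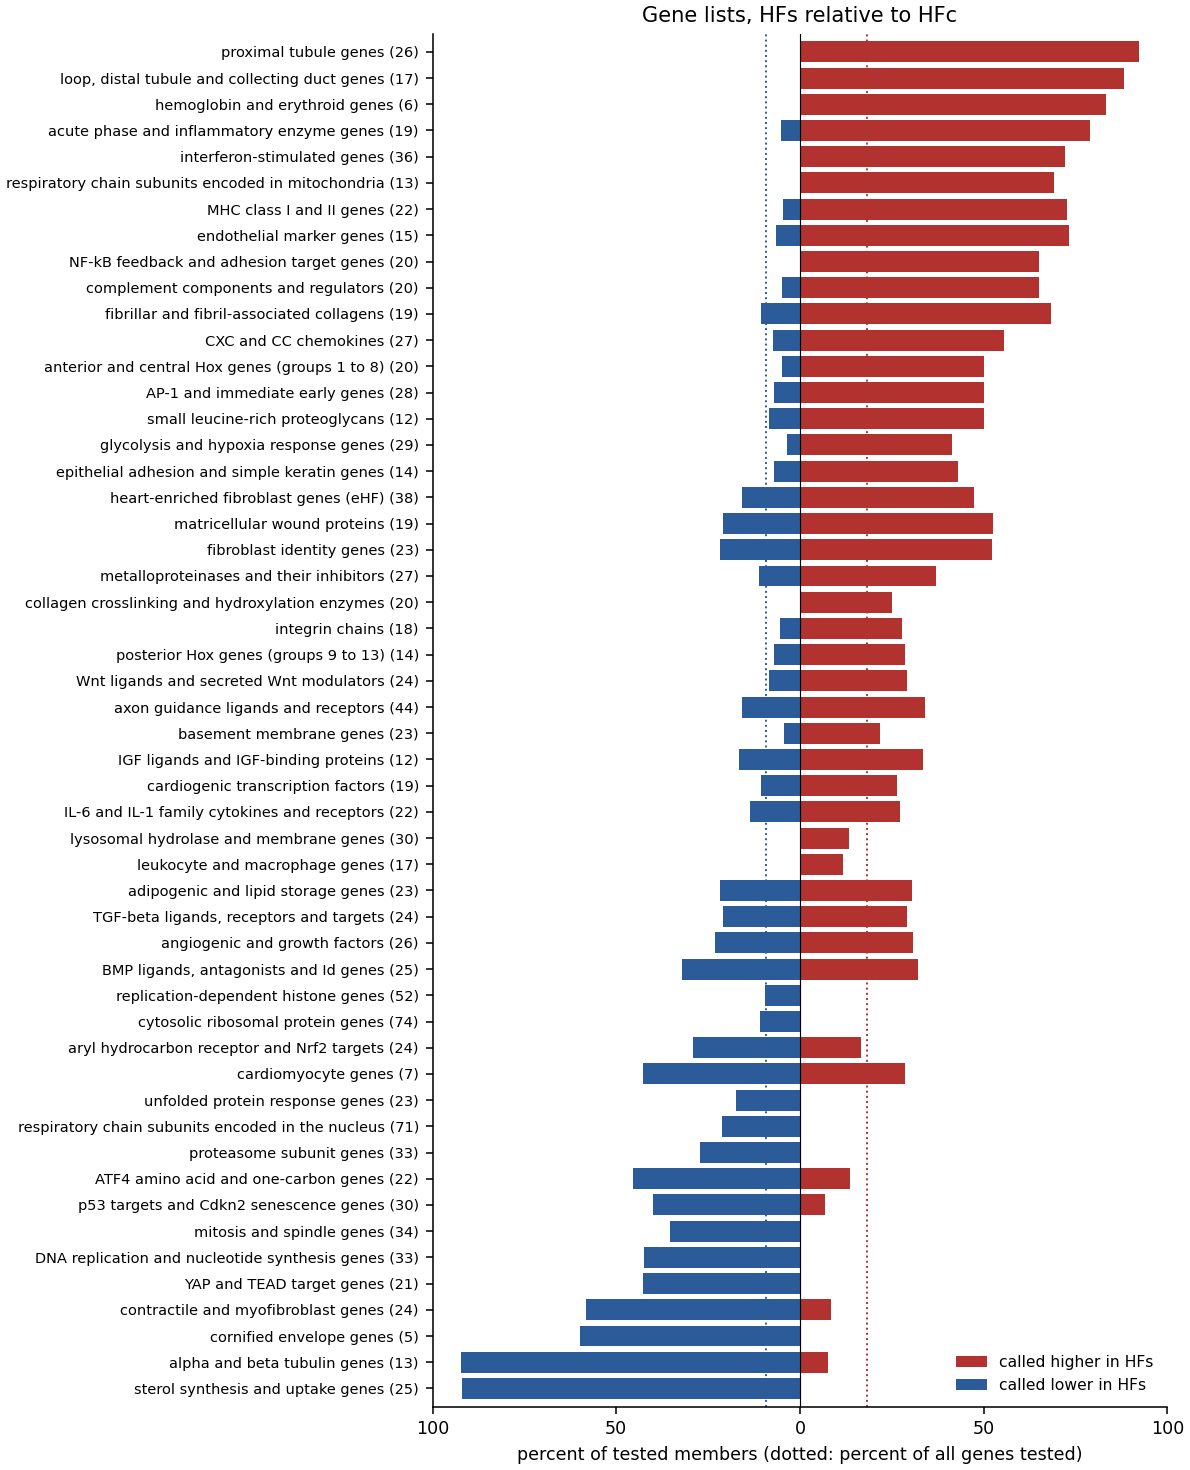
Share of the tested members of each gene list (number tested in parentheses) that was called higher (red, to the right) or lower (blue, to the left) in HFs than in HFc. Dotted lines mark the shares over all genes tested, 18.3% higher and 9.33% lower.

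Collagen transcripts took a larger part of the transcriptome after transplantation. The listed fibrillar and fibril-associated collagens held 12.9%, 12.2% and 7.95% of the counts in HFs and 2.49% to 2.62% in HFc. Of 19 tested, 13 rose and 2 fell (1 without HFs replicate 3), with a median log2 fold change of 1.48, against 18.3% and 9.33% of all genes. *Col3a1* was measured at 49272, 51660 and 33971 CPM in HFs and at 5341, 5423 and 6106 CPM in HFc (log2 fold change 3.00 ± 0.47, SE). *Col1a1*, at 45869, 40058 and 23395 CPM in HFs and 5938 to 6119 CPM in HFc, rose by 2.60 ± 0.39 on this scale. Both chains were several times higher in each HFs library than in any HFc library, and replicate 3 was the lowest of the HFs libraries. The largest rise of the list was that of *Col24a1* (65.0, 54.0 and 26.8 CPM in HFs and 0.109 to 0.271 CPM in HFc, 7.93 ± 0.75), followed by *Col6a3* (4.05), a chain of the beaded collagen VI filament, and *Col5a3* (3.33). *Col2a1*, the main collagen of cartilage, moved the other way, from 111 to 117 CPM in HFc to 4.45, 6.52 and 4.44 CPM in HFs (-4.47 ± 0.33).

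Among small leucine-rich proteoglycans, which bind collagen fibrils, 6 of 12 rose and 1 fell, with a median of 2.04 (1.22 without HFs replicate 2). *Dcn* (decorin) had 1469, 1650 and 1657 CPM in HFs and 53.1, 52.0 and 66.3 CPM in HFc (4.80 ± 0.58), and *Lum* (lumican) 75.6, 73.8 and 34.1 CPM in HFs and 0.182, 0.474 and 0.786 CPM in HFc (7.04 ± 1.03). *Prelp* fell by 1.93 on the log2 scale. Of 19 matricellular genes 10 rose and 4 fell (median 1.85). *Tgfbi* (4.43), *Spp1* (4.32), *Thbs2* (1.90) and *Postn* (1.85) were among those that rose, whereas *Thbs1* (7264 to 7645 CPM in HFc and 1486 to 2925 CPM in HFs, -1.81) and *Ccn2* fell. *Tnc*, chosen after its values were seen, overlapped between the groups (1551, 823 and 447 CPM in HFs and near the middle of that range in HFc). Metalloproteinases and their inhibitors rose in 10 of 27 cases and fell in 3, or in 1 without HFs replicate 1. *Mmp3*, the stromelysin, reached 305, 787 and 1166 CPM in HFs from 8.59 to 12.6 CPM in HFc (6.20 ± 1.00), *Mmp9* 53.8, 34.3 and 35.9 CPM from at most 0.295 CPM (8.95 ± 0.65), and the inhibitor gene *Timp1* 513 to 667 CPM from 130 to 139 CPM (2.08 ± 0.32). Among collagen-modifying enzymes 5 of 20 rose (25.0%, against 18.3% of all genes), among basement membrane genes 5 of 23 (21.7%) with 1 lower, and among integrin chains 5 of 18 (27.8%) with 1 lower, or 2 lower without KFs replicate 3. The basement membrane count was 3 without HFs replicate 2 or HFc replicate 2 and 8 without KFs replicate 3, which enters the estimate of the spread.

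Genes used to identify fibroblasts did not move as a block. Of 23, 12 rose and 5 fell, with a median log2 fold change of 1.24. *Pdgfra*, a growth factor receptor of many fibroblasts, was measured at 433, 486 and 655 CPM in HFs and 175 to 184 CPM in HFc (1.56 ± 0.34), and *Fap*, a membrane protease of activated fibroblasts, at 26.7, 22.6 and 17.3 CPM in HFs and 0.838 to 2.33 CPM in HFc (3.77 ± 0.46). In contrast, *S100a4* was at 599, 626 and 594 CPM in HFc and at 26.3, 18.7 and 30.8 CPM in HFs (-4.58 ± 0.33), *Thy1*, which encodes CD90, fell by 1.91 on the log2 scale and *Vim* (vimentin) by 1.22. None of these 5 genes overlapped between the groups, as was the case for 2909 of the 3038 genes called higher and 1529 of the 1547 called lower.

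Contractile genes of the myofibroblast fell in 14 of 24 cases, with a median of -1.30, and 2 rose. *Acta2* (smooth muscle actin) was at 2078, 2102 and 2034 CPM in HFc and at 782, 565 and 376 CPM in HFs (-1.85 ± 0.33), and *Tagln* (transgelin) at 843 to 860 and 108 to 251.1 CPM (-2.23 ± 0.29). The exceptions were *Mylk*, a myosin light chain kinase (97.6 to 120 CPM in HFs and 10.8 to 12.97 CPM in HFc, 3.26 ± 0.34), and *Des* (desmin, 1.95 ± 0.41). Tail and kidney fibroblasts had similar medians for the list, -1.30 and -1.37.

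YAP and TEAD targets fell in 9 of 21 cases and rose in none, with a median of -0.91. *Ankrd1* was measured at 1519, 1470 and 1493 CPM in HFc and at 44.6, 52.2 and 62.7 CPM in HFs (-4.81 ± 0.46), and *Ccn2*, also known as connective tissue growth factor, at 1970 to 2030 and 223 to 314 CPM (-2.90 ± 0.25). *Ccn1*, the other classical target and chosen after its values were seen, was at 437 to 496 CPM in HFs and 854 to 873 CPM in HFc (-0.91 ± 0.17), just inside the fold limit. The promoter of *Ankrd1*, the target with the largest fall, is shown for the TEAD pattern GGAATG (or its reverse complement), given in capitals. Of the 13 members of the list with a promoter in the RefSeq table for GRCm38.p6, which spans 250 bases before to 50 after each start, 8 hold the pattern (61.5%), against 14.6% of all 27025 promoters. This and the matches below describe letters only.

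Ankrd1 (chr19:36119795-36120094, minus strand, GRCm38.p6): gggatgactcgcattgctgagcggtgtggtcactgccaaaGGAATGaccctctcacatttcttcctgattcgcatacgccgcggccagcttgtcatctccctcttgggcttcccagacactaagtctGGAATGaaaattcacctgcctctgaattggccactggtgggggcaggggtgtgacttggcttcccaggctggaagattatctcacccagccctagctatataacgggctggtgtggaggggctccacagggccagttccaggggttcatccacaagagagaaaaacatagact

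Among the lists with over 20 members tested, sterol synthesis and uptake had the largest share of genes called lower. Of 25 genes, 23 fell and none rose, with a median of -2.24, against 9.33% of all genes lower. *Fdps*, which makes farnesyl diphosphate, was at 106, 112 and 116 CPM in HFc and at 7.81, 6.87 and 4.40 CPM in HFs (-4.14 ± 0.30). *Hsd17b7* (-3.44 ± 0.20), *Idi1* (-3.43 ± 0.40), *Msmo1* (-3.34 ± 0.21) and *Sqle* (squalene epoxidase, -3.32 ± 0.29) followed among the enzymes. The regulators *Srebf2* and *Insig1* fell by 1.67 and 2.04. The fall thus reached both the enzymes and the transcription factor that controls them. The count was 22 or 23 with any heart library left out.

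The promoters of 2 sterol enzymes that fell are given with the CCAAT box (CCAAT or ATTGG) in capitals, because this sequence binds NF-Y, a partner of SREBP2, the protein that *Srebf2* encodes. Of the 17 members with a promoter in the table, 15 hold a CCAAT box (88.2%), against 37.9% of all promoters. The sterol element pattern TCACNCCAC was found in 1 of the 17, *Hmgcs1*, on the forward strand at position -137 from the start, and in 1.22% of all promoters.

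Idi1 (chr13:8885356-8885655, plus strand, GRCm38.p6): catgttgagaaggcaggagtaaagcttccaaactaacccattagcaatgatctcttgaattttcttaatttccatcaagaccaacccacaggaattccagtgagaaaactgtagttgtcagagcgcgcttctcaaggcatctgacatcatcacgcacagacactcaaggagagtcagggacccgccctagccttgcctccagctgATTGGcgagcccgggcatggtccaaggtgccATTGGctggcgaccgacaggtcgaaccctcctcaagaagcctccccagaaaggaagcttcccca
Hmgcs1 (chr13:119690101-119690400, plus strand, GRCm38.p6): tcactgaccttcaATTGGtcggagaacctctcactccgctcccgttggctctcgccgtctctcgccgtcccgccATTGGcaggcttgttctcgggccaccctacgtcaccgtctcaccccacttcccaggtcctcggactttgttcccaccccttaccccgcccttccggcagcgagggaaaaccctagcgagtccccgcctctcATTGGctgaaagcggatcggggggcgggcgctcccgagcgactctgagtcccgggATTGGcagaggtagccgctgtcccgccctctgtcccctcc

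Tubulin genes, which encode the subunits of microtubules, fell in 12 of 13 cases (median -1.46). *Tubb3* was at 524, 558 and 556 CPM in HFc and at 43.7, 26.2 and 28.3 CPM in HFs (-4.06 ± 0.22), *Tuba1a* at 1099 to 1153 and 164 to 242 CPM (-2.53 ± 0.17) and *Tubb4a* at 199 to 205 and 12.7 to 29.1 CPM (-3.22 ± 0.35). *Tubb1*, a platelet isoform, was the exception, with at most 0.759 CPM in HFs and no count in HFc. Proteasome subunits fell in 9 of 33 cases and rose in none (median -0.88), with *Psmd8* (-1.70 ± 0.12) and *Psmb5* (-1.59 ± 0.15) the largest falls. The immunoproteasome subunits *Psmb8*, *Psmb9* and *Psmb10*, listed with the MHC genes because interferon induces them, rose by 3.25, 2.32 and 1.02.

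Cell cycle genes were examined as lists of DNA replication, mitosis and S phase histones. Of 33 genes of DNA replication and nucleotide synthesis 14 fell and none rose (median -0.96). *Rrm2*, a subunit of ribonucleotide reductase, was at 56.7, 55.2 and 45.5 CPM in HFc and at 8.53, 6.96 and 9.11 CPM in HFs (-2.68 ± 0.33), and *Mcm5*, of the replicative helicase, at 23.9 to 24.4 and 5.198 to 10.4 CPM (-1.63 ± 0.32). Of 34 mitosis and spindle genes 12 fell and none rose (median -0.75), led by *Ube2c* (-1.75 ± 0.29), *Aurka* (-1.53 ± 0.35) and *Cdc20* (-1.42 ± 0.30). This count was 7 without HFs replicate 2 and 7 without replicate 3. *Mki67*, chosen after its values were seen, did not pass the test (235, 164 and 222 CPM in HFs and 239 to 257 CPM in HFc). *Ccnd1*, which encodes the cyclin that responds to growth factors and was also chosen after its values were seen, fell from 522 to 594 CPM to 67.5 to 90.9 CPM (-2.89 ± 0.12). Of 52 histone genes that are transcribed in S phase 5 fell (9.62%, near the 9.33% of all genes), and between 1 and 3 fell in 5 of the 6 fits that left out a heart library.

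The promoter of *Ube2c* shows the cell cycle homology region TTTGAA (or TTCAAA, in capitals), an element of mitotic genes, at position -29. It was found in 21 of the 27 mitosis promoters listed (77.8%), against 18.1% of all promoters, and a CCAAT box also in 21 (77.8%).

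Ube2c (chr2:164769679-164769978, plus strand, GRCm38.p6): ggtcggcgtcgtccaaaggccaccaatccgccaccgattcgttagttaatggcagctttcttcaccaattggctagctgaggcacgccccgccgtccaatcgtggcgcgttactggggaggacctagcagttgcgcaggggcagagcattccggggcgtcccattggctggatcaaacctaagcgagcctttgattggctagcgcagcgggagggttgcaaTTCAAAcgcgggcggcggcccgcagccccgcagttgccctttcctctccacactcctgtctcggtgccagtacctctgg

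The p53 targets and *Cdkn2* genes fell in 12 of 30 cases and rose in 2, with a median of -0.56. *Bax*, which promotes apoptosis, was at 64.3 to 65.4 CPM in HFc and 20.1 to 22.1 CPM in HFs (-1.63 ± 0.08). The cell cycle inhibitor genes *Cdkn1a* and *Cdkn2a*, chosen after their values were seen, did not reach the fold limit (-0.36 ± 0.08 and -0.09 ± 0.15).

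Acute phase and inflammatory enzyme genes gave one of the largest rises outside the kidney lists, in 15 of 19 genes with 1 lower, against 18.3% and 9.33% of all genes. The median was 4.44, or 3.64 with the 4 genes at the floor in HFc set to their lower bound. *Hp* (haptoglobin) had 184, 231.5 and 617 CPM in HFs and 0.291 to 0.540 CPM in HFc (9.72 ± 0.98), *Lcn2* (lipocalin 2) 135, 216 and 385 CPM and 0.401 to 0.846 CPM (8.69 ± 0.99), and *Serpina3n* 765, 2112 and 5090 CPM and 103 to 161 CPM (4.44 ± 0.70). These genes, like *Saa3*, were lowest in HFs replicate 1 and highest in replicate 3. *Nos2*, the inducible nitric oxide synthase, was at 10.2, 21.6 and 31.9 CPM in HFs and at most 0.0677 CPM in HFc, at least 178-fold higher.

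Complement genes rose in 13 of 20 cases (median 2.34). The 1 gene called lower was not called with DESeq2 size factors, with no filter, in the heart libraries alone, or in 5 of the 6 fits without a heart library, the exception being that without HFs replicate 3. *C3*, the central component of the cascade, was measured at 2687, 5614 and 9420 CPM in HFs and 139, 124.5 and 190 CPM in HFc (5.29 ± 0.53), *Cfb*, of the alternative pathway, at 89.4, 222 and 256.5 CPM and 0.372 to 0.540 CPM (8.65 ± 0.87), and *C1s1*, a protease of the classical pathway, at 170, 251.3 and 311.5 CPM and 2.54 to 4.08 CPM (6.27 ± 0.53). Again replicate 1 was the lowest HFs library. Of 27 chemokine genes 15 rose and 2 fell (median 1.45, or 1.64 with genes at the floor set to their bound). The median was 2.25 without HFc replicate 2 and 2.44 in a fit of the heart libraries alone. *Cxcl12*, the most abundant of them, was at 866, 1054 and 1228 CPM in HFs and 94.7 to 99.2 CPM in HFc (3.44 ± 0.53), *Cxcl1*, which attracts neutrophils, at 66.8, 54.4 and 103 CPM and 2.50 to 5.64 CPM (4.25 ± 0.40), and *Ccl8* at 24.9, 35.7 and 18.1 CPM and at most 0.406 CPM (6.81 ± 0.64). *Ccl17* fell by 3.00 on the log2 scale.

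Cytokines of the IL-1 and IL-6 families were less uniform, with 6 higher and 3 lower of 22. These shares were 27.3% and 13.6%, against 18.3% and 9.33% of all genes. *Il33*, an alarmin, was at 239, 177 and 157 CPM in HFs and 0.1965 to 0.372 CPM in HFc (9.44 ± 0.59), the largest rise of the list. *Csf1*, the growth factor of macrophages, fell from 1961, 1893 and 1849 CPM to 336, 334 and 501 CPM (-2.28 ± 0.16) and *Lif* by 1.49. *Il6*, chosen after its values were seen, overlapped between the groups (11.9 to 22.8 CPM in HFs and 19.6 to 22.7 CPM in HFc). The number of rises in this list was 3 without HFc replicate 2 and 3 in the fit of the heart libraries alone. Targets of NF-kB rose in 13 of 20 cases and fell in none (1 without HFs replicate 3), with a median of 1.30, and with *Vcam1*, an adhesion molecule for leukocytes (444 to 675 and 119 to 146 CPM, 2.02 ± 0.17), and the feedback inhibitor gene *Nfkbia* (52.2 to 94.8 and 18.5 to 23.3 CPM, 1.75 ± 0.19) among them. The kappa B pattern GGGNNTTCC, on either strand, was in 5 of 15 promoters of this list (33.3%, against 5.72% of all promoters).

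Interferon-stimulated genes rose in 26 of 36 cases and fell in none, with a median of 2.31. *Oasl2* was measured at 40.7, 42.2 and 44.4 CPM in HFs and 5.90, 3.38 and 3.29 CPM in HFc (3.33 ± 0.41), *Rsad2* (viperin) at 18.03, 10.2 and 6.26 CPM and 0.291 to 1.56 CPM (3.85 ± 0.98), *Ifit1* at 40.3, 34.6 and 25.2 CPM and 4.62 to 7.65 CPM (2.41 ± 0.58), and *Isg15*, a ubiquitin-like modifier, at 16.2, 13.2 and 10.9 CPM and 2.01 to 3.86 CPM (2.29 ± 0.57). In the MHC list 16 of 22 rose and 1 fell, with the class I heavy chains *H2-K1* (2.67 ± 0.21) and *H2-D1* (283 to 357 CPM in HFs and 91.0 to 96.95 CPM in HFc) the most abundant of those that rose. Class II genes, which professional antigen-presenting cells express, were scarce. *H2-Aa* had 0.961, 4.05 and 4.59 CPM in HFs and at most 0.0728 CPM in HFc, at least 26.8-fold, and *Cd74* 2.58, 17.3 and 15.3 CPM and at most 0.910 CPM (4.38 ± 0.93). Both were lowest in replicate 1, as *Ptprc* was (3.73, 7.89 and 11.7 CPM in HFs and 5.35 to 5.45 CPM in HFc), and the part of CD45 cells in these values was not tested.

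The promoters of *Isg15* and *Ifit1* are shown with the pattern GAAANNGAA (either strand, overlapping matches joined), part of the interferon-stimulated response element, in capitals. It was present in 18 of the 28 interferon-stimulated genes with a promoter in the table (64.3%), against 8.57% of all promoters.

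Isg15 (chr4:156200769-156201068, minus strand, GRCm38.p6): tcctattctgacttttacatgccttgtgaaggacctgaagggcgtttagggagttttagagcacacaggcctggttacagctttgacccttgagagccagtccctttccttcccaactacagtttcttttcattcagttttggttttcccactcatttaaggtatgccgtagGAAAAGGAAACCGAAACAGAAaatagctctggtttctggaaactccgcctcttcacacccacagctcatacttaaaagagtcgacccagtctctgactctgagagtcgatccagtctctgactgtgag
Ifit1 (chr19:34640639-34640938, plus strand, GRCm38.p6): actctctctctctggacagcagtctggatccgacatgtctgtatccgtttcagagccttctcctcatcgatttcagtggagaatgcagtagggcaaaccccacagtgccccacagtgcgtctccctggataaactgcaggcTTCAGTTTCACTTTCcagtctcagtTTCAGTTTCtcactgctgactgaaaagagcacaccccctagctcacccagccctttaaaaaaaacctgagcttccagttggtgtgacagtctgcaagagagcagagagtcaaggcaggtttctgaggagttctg

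Immediate early genes rose in 14 of 28 cases and fell in 2, with a median of 0.85. *Fos* was at 267, 271 and 325.5 CPM in HFs and 12.4, 14.65 and 18.1 CPM in HFc (4.26 ± 0.25), *Fosb* at 152.9, 123.3 and 171.2 CPM and 2.04 to 2.23 CPM (6.14 ± 0.27), *Egr1* at 388 to 474 and 43.1 to 44.8 CPM (3.31 ± 0.15) and the nuclear receptor gene *Nr4a3* at 62.7, 42.9 and 35.3 CPM and 0.146 to 0.778 CPM (6.49 ± 0.70). All were well separated. Dissociation and sorting of tissue are known to induce these genes. HFs were sorted and no such step is given for HFc, so handling and site cannot be told apart. Of the members, 23 had a promoter in the table, which leaves out chromosome 18. The serum response pattern CCATATNNG was found in none of them (1.50% of all promoters hold it). The cyclic AMP response element TGACGTCA was in 2 (8.70%), of which 1 was called. It was in 1.88% of all promoters and in 3.08% of those of genes tested. Both patterns were sought on either strand. The heat shock genes *Hsph1* and *Hspa1b* were the 2 that fell (-2.13 and -1.47).

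Genes of glycolysis and the hypoxia response rose in 12 of 29 cases and fell in 1 (median 0.97, or 0.61 without HFs replicate 3). *Egln3*, a prolyl hydroxylase that acts on HIF, was at 18.75, 38.0 and 47.9 CPM in HFs and 0.541 to 2.11 CPM in HFc (4.68 ± 0.66), *Pdk1*, which restrains the entry of pyruvate into mitochondria, at 61.2, 80.8 and 95.1 CPM and 7.003 to 9.58 CPM (3.30 ± 0.28), and *Bnip3*, of mitophagy, at 86.5, 132 and 169 CPM and 12.3 to 15.4 CPM (3.27 ± 0.34). All 3 were lowest in replicate 1 and highest in replicate 3. *Adm* (adrenomedullin) fell, from 240 to 264 CPM to 40.2, 64.1 and 161 CPM, and was not called without HFs replicate 1 or 2. The core of the hypoxia response element, ACGTG (or CACGT, capitals), is shown in the promoter of *Bnip3*, where its 2 matches overlap. Of 26 promoters of the list 14 hold it (53.8%), against 19.7% of all promoters and 24.7% of those of genes tested.

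Bnip3 (chr7:138909457-138909756, minus strand, GRCm38.p6): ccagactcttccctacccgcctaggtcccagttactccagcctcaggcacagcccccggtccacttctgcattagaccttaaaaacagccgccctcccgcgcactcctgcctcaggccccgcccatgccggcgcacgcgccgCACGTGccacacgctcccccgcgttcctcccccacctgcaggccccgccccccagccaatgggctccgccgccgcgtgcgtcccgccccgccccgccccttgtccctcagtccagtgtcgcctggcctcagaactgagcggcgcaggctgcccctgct

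Respiratory chain genes differed by the genome that encodes them. Of 13 mitochondrially encoded subunits 9 rose and none fell (median 1.08), among them *mt-Co2* (1479, 1647 and 2155 CPM in HFs and 719 to 738 CPM in HFc, 1.27 ± 0.15) and *mt-Co3* (1.33 ± 0.15). Replicate 3 was the highest HFs library, and 5 were called without it. Of 71 nuclear-encoded subunits 15 fell and none rose (median -0.74), led by *Ndufa11* (-1.59 ± 0.18). Cytosolic ribosomal protein genes had negative log2 fold changes in all 74 cases, with a median of -0.68, and 8 passed the test (10.8%, near the 9.33% of all genes). The most abundant of these 8, *Rpsa*, was at 1793 to 1805 CPM in HFc and 721 to 905 CPM in HFs (log2 fold change -1.2003), and *Rps12*, with 0, 28.3 and 15.5 CPM in HFs and 157 to 163 CPM in HFc, fell most. Among ribosomal protein genes 5 fell without HFs replicate 2 or 3, and 14 did when library size alone was used. Short transcripts were lower in HFs in general: the median log2 fold change ran from -0.26 in the shortest quintile of transcripts to 0.11 in the longest, and 57 of the nuclear-encoded subunits, 66 of the ribosomal protein genes and 14 of the 33 proteasome genes belong to the shortest. The part of transcript length in these falls was not tested.

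Genes of amino acid and one-carbon metabolism under ATF4 fell in 10 of 22 cases and rose in 3 (median -0.93). *Phgdh*, the first enzyme of serine synthesis, was at 81.9, 85.9 and 84.8 CPM in HFc and 7.51, 8.72 and 7.70 CPM in HFs (-3.40 ± 0.11), *Asns* (asparagine synthetase) at 53.2 to 58.7 and 8.01 to 11.0 CPM (-2.59 ± 0.15), and *Chac1* fell by 4.18. The rises of *Cbs* and *Cth* were at most 5.11 CPM in HFs and were not called without HFs replicate 2 (0.82 and 0.57), the library with the most tubule transcripts, nor without HFc replicate 1 or 2. Unfolded protein response genes had 4 falls of 23 (17.4%, against 9.33% of all genes) and no rise. Lysosomal genes had 4 rises of 30 (13.3%, below the 18.3% of all genes) and no fall. Targets of the aryl hydrocarbon receptor and Nrf2 fell in 7 of 24 cases (29.2%) and rose in 4 (16.7%, near the share of all genes), with *Gstm1* (-1.94 ± 0.25) the largest fall. Adipogenic and lipid storage genes rose in 7 of 23 cases, *Cd36* (4.64 ± 0.86) and *Fabp4* (3.88 ± 0.88) most, and fell in 5, among them *Fasn* (-1.74) and *Scd1* (-1.48) of fatty acid synthesis.

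Growth factor pathways were mixed, against 18.3% of all genes higher and 9.33% lower. In the TGF-beta list 7 of 24 rose and 5 fell. The ligand gene *Tgfb1* rose (30.8 to 50.2 CPM in HFs and 12.8 to 14.05 CPM in HFc, 1.54 ± 0.18), whereas *Tgfb2* (-1.77 ± 0.14) and *Inhba* (-2.12 ± 0.22) fell, as did the inhibitory SMAD genes *Smad6* (-2.65) and *Smad7* (-1.01). In the BMP list 8 of 25 rose and 8 fell. *Id1*, the usual readout of BMP signalling, was at 41.3, 46.8 and 49.0 CPM in HFc and 2.58, 3.52 and 4.63 CPM in HFs (-3.65 ± 0.28), the ligand gene *Gdf6* at 437 to 445.5 and 43.7 to 59.7 CPM (-3.08 ± 0.26), and *Bmp4* (-2.82) and the antagonist gene *Nog* (noggin, -2.89) fell as well. Wnt ligands and modulators rose in 7 of 24 cases (29.2%) and fell in 2 (8.33%, near the share of all genes). *Rspo3*, an amplifier of Wnt signals, was at 3.64 to 4.41 CPM in HFs and at most 0.1965 CPM in HFc (5.60 ± 0.74), and *Wnt9a* fell by 2.65.

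Of 12 IGF system genes 4 rose and 2 fell (33.3% and 16.7%, against 18.3% and 9.33% of all genes), and 2 rose without HFs replicate 2 or 3 or any one HFc library. *Igfbp2* was at 399, 397 and 384 CPM in HFc and 29.1, 33.5 and 33.7 CPM in HFs (-3.61 ± 0.23), the receptor gene *Igf1r* fell by 2.07, and *Igfbp5* rose, with the libraries spread widely (229, 839 and 695 CPM in HFs and 36.1 to 96.0 CPM in HFc, 3.26 ± 0.48). Angiogenic and other growth factors rose in 8 of 26 cases and fell in 6. *Angptl4*, an inhibitor of lipoprotein lipase, was at 250.2, 233.5 and 352.6 CPM in HFs and 5.58 to 6.12 CPM in HFc (5.59 ± 0.18), and *Hgf*, the hepatocyte growth factor, at 23.9, 25.6 and 26.3 CPM and 0.3045 to 0.728 CPM (5.55 ± 0.36), while *Fgf18* (-2.75) and *Pdgfa* (-1.98) fell. Of 44 axon guidance genes 15 rose and 7 fell, with *Sema3b* (4.93 ± 0.41), *Efna1* (4.18) and *Slit3* (2.74 ± 0.35) the largest rises and *Epha2* (-3.55 ± 0.67), *Sema3e* (-3.13) and *Sema3a* (-2.87 ± 0.23) the largest falls.

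Of 19 cardiogenic transcription factors, 5 rose (26.3%, against 18.3% of all genes) and 2 fell (10.53%, against 9.33%), and 3 rose with library size alone. Only *Tbx20* among them is taken here to mark heart origin. *Tbx20* was at 1176, 1222 and 1154 CPM in HFc and 372, 397 and 448 CPM in HFs (-1.55 ± 0.20), and *Hey2* fell by 2.36. *Gata4* (59.3 to 69.5 CPM in HFs and 98.9 to 104 CPM in HFc, -0.66 ± 0.19) was not called, and *Wt1* (1.67 ± 0.30), *Heyl* (1.56 ± 0.34) and *Meis1* (1.41 ± 0.21) were the largest rises. Of the heart-enriched fibroblast genes, a list that the study drew from a separate microarray, 18 of 38 rose and 6 fell (median 1.88), but several of those that rose also belong to the interferon list (*Oasl1*, *Cmpk2*, *Oas2*, *Zbp1*, *Oas1a*) or to the lists of metalloproteinases (*Mmp3*) and acute phase genes (*Serpina3n*).

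*Hox* genes, which record position along the body axis, were expressed at low levels in both groups. The 22 matched genes of groups 1 to 8 summed to 15.98, 25.5 and 16.8 CPM in HFs and 8.20 to 12.2 CPM in HFc. Of 20 tested 10 rose and 1 fell (none without HFs replicate 1), and 4 rose in a fit of the 6 heart libraries alone. *Hoxd8* was at 4.69, 6.65 and 5.77 CPM in HFs and 1.35 to 2.22 CPM in HFc (1.76 ± 0.48). *Hoxd3* was not called (1.67 ± 0.97), nor was *Hoxa5* (0.94 ± 0.61), and its value without HFs replicate 2 was below 0. Of 14 genes of groups 9 to 13 tested 4 rose and 1 fell, and none rose in the fit of the heart libraries alone. *Hoxa9* had 0.541, 1.45 and 0.190 CPM in HFs and no count in HFc, at least 6.10-fold, and *Hoxc13* fell from 2.06 to 2.99 CPM to at most 0.308 CPM (-4.33 ± 0.42). *Hoxb13* and *Hoxd10* were at or under the floor in all 6 libraries. *Hox* levels were highest in HFs replicate 2, which also had the most tubule transcripts, and the part of kidney RNA in them was not tested. The integrin chain gene *Itga3* was at 4.14 to 7.53 CPM in HFs and 11.6 to 13.2 CPM in HFc and was not called (-1.18 ± 0.79), although it was in the fit of the heart libraries alone (-1.13) and without KFs replicate 3 (-1.16).

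Lists of other cell types were examined in full for comparison, against 18.3% of all genes higher and 9.33% lower. Proximal tubule genes rose in 24 of 26 cases and fell in none, of which 17 were at or under the floor in HFc. Genes of the loop, distal tubule and collecting duct rose in 15 of 17 cases (9 in the fit of the heart libraries alone). Both held without HFs replicate 2, with 24 and 15 rises, but 1 proximal tubule gene then fell. Epithelial adhesion and keratin genes rose in 6 of 14 cases, in 3 without HFs replicate 2 or any one HFc library, and in 10 without KFs replicate 3. The simple keratin gene *Krt8* was at 1.56, 3.08 and 1.75 CPM in HFs and absent from HFc (at least 17.85-fold), and *Krt19* fell by 2.28. Endothelial genes rose in 11 of 15 cases and fell in 1, but the list summed to less in HFs (285 to 290 CPM) than in HFc (576 to 586 CPM). *Emcn*, one that rose, was at a low level (1.202, 1.76 and 1.21 CPM in HFs and none in HFc, at least 11.7-fold). Leukocyte and macrophage genes rose in 2 of 17 cases (11.8%, below the share of all genes) and fell in none. In this list 1 rose without HFs replicate 2 or 3 or HFc replicate 1 or 2, and 1 fell without HFs replicate 2 or 3 or HFc replicate 1. Erythroid genes rose in 5 of 6 cases and in none in the fit of the heart libraries alone, and HFs replicate 2 had nearly none. Of 7 cardiomyocyte genes 2 rose and 3 fell. *Nppb*, a natriuretic peptide gene, fell from 0.540 to 1.12 CPM to no count (at least 5.42-fold). Cornified envelope genes, of keratinocytes, fell in 3 of 5 cases, *Ivl* (involucrin) from 2.29 to 4.08 CPM to at most 0.361 CPM (-4.19 ± 0.77).

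To find where the response of heart fibroblasts differed from that of other organs, the change from culture to transplant was compared with that in tail and in kidney fibroblasts in the same fit (interaction terms, adjusted p below 0.05). The response differed from that of tail fibroblasts in 3776 genes (22.8%) and from that of kidney fibroblasts in 4347 (26.2%), and from both in 2188 (13.2%). Of 1872 genes called in heart fibroblasts and in neither of the others, 718 differed from both. The control and transplanted heart libraries enter both differences, so these counts are not independent.

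The falls in sterol synthesis, tubulin, proteasome and cell cycle genes included many genes whose response differed from both other organs, as the plot of the responses of these genes shows. In sterol synthesis and uptake 20 of 25 genes differed from tail fibroblasts and 23 from kidney fibroblasts, 20 from both, and the medians were -2.24 in heart, -1.075 in tail and -0.65 in kidney. Without HFs replicate 3 the number that differed from tail was 13. For *Fdps* the heart response minus that of tail was -2.48 and minus that of kidney -2.91 on the log2 scale (edgeR adjusted p = 0.000346 and 0.000124). Of the 13 tubulin genes 10 differed from both, and none fell in tail or kidney fibroblasts. *Tubb3* had a response of -0.41 in tail and -0.64 in kidney fibroblasts, against -4.06 in heart (adjusted p = 2.53e-06 and 4.53e-06). Of 33 proteasome genes 22 differed from both, and 28 differed from kidney fibroblasts, or 18 without HFs replicate 3.

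**Figure D5:**
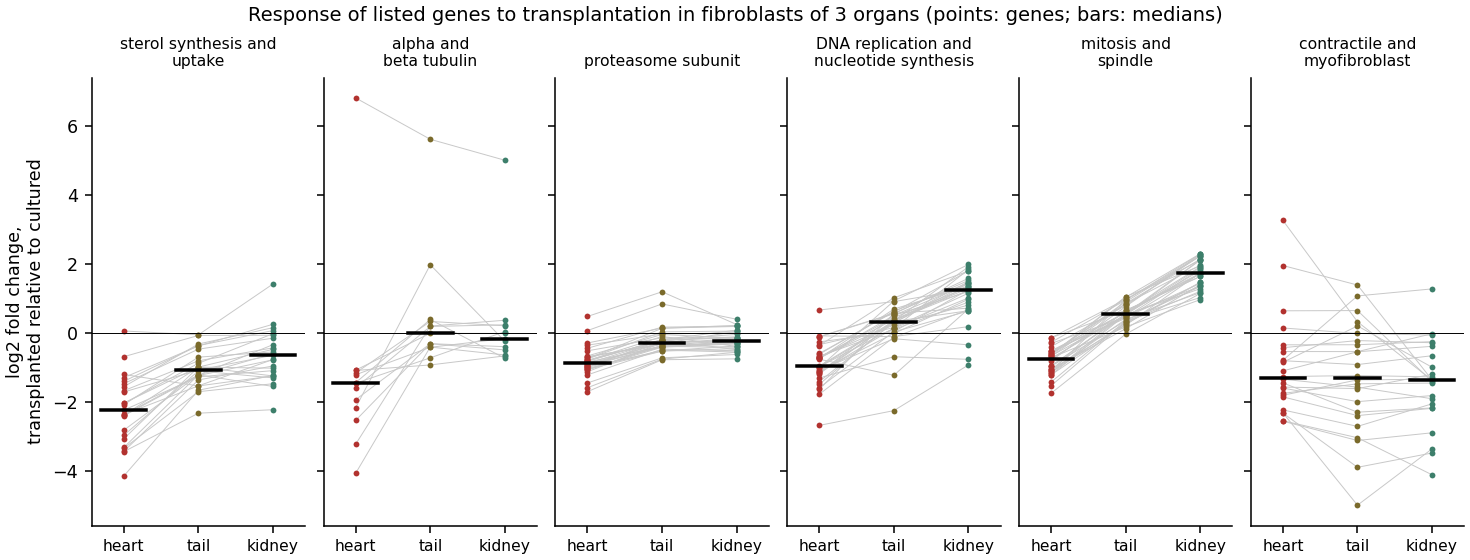
Log2 fold change of transplanted relative to cultured fibroblasts (vertical axis) of each tested gene (points, joined by grey lines) in heart, tail and kidney for 6 gene lists, with the median of each as a black bar. Sterol synthesis medians were -2.24, -1.075 and -0.65 and mitosis medians -0.75, 0.54 and 1.73 in heart, tail and kidney, whereas contractile genes had medians of -1.30, -1.30 and -1.37.

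In the mitosis list all 34 genes differed from kidney fibroblasts, in which 33 rose (median 1.73), and 27 differed from tail (median 0.54). The difference from tail was less firm, with 8 genes without HFs replicate 2 10 without replicate 3 and 12 and 13 without HFc replicates 1 and 2, whereas 33 differed from kidney in each of these fits. Of 33 replication genes 23 differed from both. *Mcm5* was called lower in heart (-1.63), unchanged beyond the limits in tail (0.57) and higher in kidney (1.52). Of the histone genes 41 of 52 differed from kidney and 4 from tail. In contrast, contractile genes differed from both in 2 of 24 cases and interferon-stimulated genes in none of 36, although 14 of the latter differed from tail fibroblasts, where the median was 3.59 (9 without HFs replicate 2 or HFc replicate 1).

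Several genes of matrix, growth factors and the immediate early list also set the heart response apart. *Hgf* rose by 5.55 in heart and had responses of 0.19 in tail and 1.06 in kidney (adjusted p = 1.94e-06 and 1.18e-05). The immediate early genes *Nr4a3* (6.49, 1.51 and 0.97) and *Egr1* (3.31, 1.66 and 1.62) rose more in heart than in either, with adjusted p-values of 0.000933 and 0.000339 for the former and 4.28e-05 and 5.1e-05 for the latter. For *Nr4a3* and *Egr1* handling and site cannot be told apart, as stated above. *Col24a1* rose by 7.93 in heart and by 1.94 and 2.2027 in tail and kidney (adjusted p = 0.000298 and 0.000435). *Ltbp2*, which encodes a binding protein of elastic fibres, rose in heart only of the 3 comparisons, from 37.3 to 45.3 CPM to 881, 709 and 302 CPM (3.92 ± 0.32), and differed from both others (adjusted p = 2.53e-06 and 8.87e-06). *Tnc* was the opposite case, not called in heart and with responses of 1.45 and 1.66 in tail and kidney. *Prg4* (lubricin), chosen after its values were seen, had 2108, 1654 and 1036 CPM in HFs and 4.27 to 4.74 CPM in HFc (8.44 ± 0.79), against responses of -0.33 in tail and 3.64 in kidney (adjusted p = 1.26e-05 and 0.00117).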

How the data were processed

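RNA of sorted or cultured fibroblasts was prepared with a stranded total RNA kit and sequenced as single-end reads. The authors filtered and trimmed the reads by quality and quantified them with RSEM, which ran Bowtie2 on GRCm38 (the labels name mm9), and deposited expected counts per gene as whole numbers, without normalization. The annotation release is not given in the sources used here. Symbols were matched to 37607 of 38924 identifiers, and the other 1317 held 0.260% of the heart counts. All 18 libraries entered 1 quasi-likelihood fit of edgeR 4.0.16 under R 4.3.3 (low counts removed by filterByExpr, TMM scaling), with a mean per group. SE is the size of the log2 fold change divided by the square root of F, and the biological coefficient of variation was 0.24. The procedure was tested on simulated data. DESeq2 1.42.0, other scalings, filters and thresholds, a replicate block and leaving out each library were the alternatives. Tables and figures used Python 3.11.15 with pandas 2.3.3 and matplotlib 3.10.9.

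Named genes are the 10 largest rises and falls among called protein-coding genes reaching 10 CPM without overlap, the 3 largest without these limits, called list members with the largest change or highest level, and genes the paper names for this experiment. Others are marked, or are unmarked members given as examples after their values were seen. The comparison and the lists were chosen with earlier results of these data known. Of the listed symbols 13 were not matched. A few genes that the rule names are not reported here. Promoters are from RefSeq, and genes without one in that table were left out.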

Additional observations from a re-analysis of the deposited data

Results flagged for a closer look

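Among the 20 protein-coding genes with the largest rises or falls, 3 had a response that differed between heart fibroblasts and fibroblasts of both other organs (interaction terms of the edgeR fit). *Mycn* fell in heart fibroblasts, and its response lay below that of tail fibroblasts by a log2 difference of -5.48 (adjusted p = 0.00136) and below that of kidney fibroblasts by -4.14 (adjusted p = 0.000262). For *Smpd3*, which fell in all 3 organs, the differences were -3.62 (adjusted p = 6.25e-05) and -1.56 (adjusted p = 0.0211). For *Ptprq*, which also fell in all 3, they were -3.52 (adjusted p = 0.000373) and -1.98 (adjusted p = 0.0373). In each case all 3 HFs libraries lay below all 3 HFc libraries, which the choice of these genes required.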

How the results depend on the processing

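The number of genes called (4585) lay between 4177 and 4912 under the other scalings, filters and samples and with DESeq2's Wald test (4886), and was 3769 at an adjusted p of 0.01. Without a fold limit it was 9353, with 4638 higher and 4715 lower. Leaving out a heart library gave 4245 to 4576 calls, 2911 to 3313 differences from tail and 3249 to 3907 from kidney fibroblasts. Without KFs replicate 3, 5461 genes differed from tail and 5962 from kidney fibroblasts. That library had a TMM factor of 1.15, against 0.981 and 0.999 in KFs replicates 1 and 2. It was kept in the fit, and its soundness was not tested. The share of calls that were higher was 62.4% to 71.5% (66.3% as reported), and DESeq2's factors or library size alone shifted the median of all genes by 0.06 and -0.06. Same-numbered HFs and HFc libraries did not deviate together (r = 0.014, -0.014 and -0.006), and a replicate block left 4504 calls. Of 317 named genes only *Hoxa5* changed sign (-0.11 without HFs replicate 2, and up to 1.38 with another heart library left out), in the settings run. Genes near 3 counts per library, such as most *Hox* genes, are limited by depth.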

Other observations

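The following genes were chosen after their values were seen. Several genes that fell most are known from mesothelium, the cell layer that covers the heart and other organs. Besides *Upk1b*, *Upk3b* and *Lrrn4*, the mesothelial transcription factor gene *Bnc1* was at 14.3 to 15.5 CPM in HFc and 0.835 to 1.10 CPM in HFs (log2 fold change -3.91 ± 0.37, SE), *Gpm6a* at 44.0 to 51.6 and 1.202 to 4.71 CPM (-3.90 ± 0.56) and *Nkain4* at 13.3 to 15.3 and 0.240 to 1.54 CPM (-3.98 ± 0.58). In contrast, *Wt1* rose, and *Msln* (mesothelin) was at or below 1.13 CPM in all 6 libraries and did not pass the test. Whether fewer such cells or lower expression accounts for the falls was not tested.

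Transcripts of a few predicted genes without an assigned function were among the most abundant that rose. *Gm26870* was measured at 6277, 3380 and 5033 CPM in HFs and 111, 115 and 90.4 CPM in HFc (5.54 ± 0.49), *Gm10718* at 198.5, 139.5 and 290.9 CPM and 0.328 to 1.25 CPM (7.96 ± 0.82) and *Gm10800* at 126, 71.4 and 162 CPM and 0.786 to 2.13 CPM (6.30 ± 0.74). All 3 rose in tail and kidney fibroblasts as well, by less (*Gm26870* 2.30 and 2.88). How their reads were divided among repeated copies is not known.

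Other genes rose in heart fibroblasts and not in the others. *Adgrd1*, an adhesion receptor gene, was at 130, 118 and 131 CPM in HFs and 4.635 to 7.03 CPM in HFc (4.38 ± 0.45), and *Ncam1* at 351, 354 and 205 CPM and 55.6 to 62.35 CPM (2.36 ± 0.17). Both differed from tail and kidney fibroblasts, *Adgrd1* at edgeR adjusted p-values of 0.000482 and 5.8e-05 and *Ncam1* at 2.08e-06 and 0.000525. *Cilp*, a cartilage matrix protein gene, had 31.8, 47.9 and 11.6 CPM in HFs and at most 0.147 CPM in HFc, at least 255-fold, and its response differed from that of tail (adjusted p = 0.00451) and kidney fibroblasts (adjusted p = 0.0084) by the edgeR interaction terms.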
